A study of Mus musculus with 8 samples.

Results

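Ribosome profiling of mouse embryonic stem cells was examined for 10 genes that encode chaperones and disulfide isomerases of the endoplasmic reticulum (ER). They were taken by gene symbol as ER folding factors known to rise in ER stress, and all 10 were among the 8125 genes of the table. The rule itself uses no measured value, but the members were chosen with earlier results of these data known. The cells were undifferentiated and grown in LIF and serum. Knockout cells (Dis3l2 -/-) had been made by CRISPR/Cas9 editing and lacked Dis3l2, an exoribonuclease that degrades structured and uridylated RNA. Control cells (Dis3l2 +/-) were heterozygous, so that control cells too carried a disrupted allele. All cells had been treated with cycloheximide, which stalls ribosomes on mRNA. Each genotype had 2 libraries of input mRNA and 2 of ribosome-protected fragments (RPFs), the stretches of mRNA left after nuclease digestion because a ribosome covered them, 8 libraries in all. The study's methods describe the replicates as biological replicates of cultures, and the number of edited clones behind them is not given in the labels or the methods. The level of Dis3l2 was not analysed here and the genotypes were not checked against it.

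The ER folds secreted and membrane proteins. In its lumen, the Hsp70 chaperone Hspa5 (BiP) holds unfolded chains, Hsp90b1 (Grp94) acts on a smaller set of clients, and the lectins Calr and Canx bind glycoproteins. Disulfide isomerases (Pdia3, Pdia4, Pdia6 and P4hb) form and rearrange disulfide bonds. When unfolded proteins accumulate, the unfolded protein response raises transcription of many of these genes, in part through Atf6 and its binding to an ER stress response element (ERSE) beside NF-Y. These mRNAs are translated at the ER membrane, to which a signal peptide at the start of the nascent chain directs them. The group name fits 9 of the 10 proteins as soluble proteins of the lumen, whereas Canx is known as a transmembrane protein with its lectin domain in the lumen.

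Which of these genes share the stress element was read from RefSeq promoters (GRCm38.p6, 250 bases before to 50 after each gene start), which held 8 of the 10 genes, all except Hyou1 and Manf. The letters CCAAT and CCACG with 9 bases between them, searched on both strands, stood in 5 of these 8 genes, against 39 of 32851 promoters (0.119%) and 37 of 27025 genes (0.137%) overall. The matches are shown as the known stress element of such genes. The genes were chosen as ones that rise in ER stress, so this share is a description that is not independent of the choice. Capitals mark the fixed letters of the element, and each line reads 5′ to 3′ on the strand that matched.
Hspa5, chr2:34772025-34772043, plus strand: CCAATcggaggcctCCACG
Hsp90b1, chr10:86705638-86705656, minus strand: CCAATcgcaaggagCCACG
Hsp90b1, chr10:86705533-86705551, plus strand: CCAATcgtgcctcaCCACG
Canx, chr11:50325800-50325818, minus strand: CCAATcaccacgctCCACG
Calr, chr8:84847075-84847093, plus strand: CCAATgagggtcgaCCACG
Pdia6, chr12:17266491-17266509, plus strand: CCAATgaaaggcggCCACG
The element read along the gene in Hspa5, Canx, Pdia6 and the first Hsp90b1 match, and against it in Calr and the other Hsp90b1 match. Pdia3, Pdia4 and P4hb had no match in this window. Another form, ERSE-II (ATTGG and CCACG with 1 base between them, both strands), which shares the CCACG letters and can overlap the longer form there, was in 12 of 32851 promoters (0.0365%) and in 0 of the 8 genes. A match is a stretch of letters and was not tested for binding.

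Another feature lies at the end of the coding sequence, where many soluble ER proteins encode the retrieval signal that KDEL receptors bind. The last coding bases (GENCODE M21, GRCm38) are shown for Hspa5 and Calr as examples of such proteins, for the membrane protein Canx, and for Pdia3 and Manf, the genes with the highest and the lowest translation efficiency (TE). Capitals mark the last 4 sense codons and lower case the stop codon.
Hspa5, chr2:34776099-34776113, plus strand: AAAGATGAGTTGtag
Calr, chr8:84842647-84842661, minus strand: AAGGATGAGCTGtag
Canx, chr11:50296282-50296296, minus strand: CCACGAAGAGAGtga
Pdia3, chr2:121437685-121437699, plus strand: CAAGAGGACCTCtaa
Manf, chr9:106889041-106889055, minus strand: CGGACTGATCTGtag
The start of the coding sequence, which encodes the signal peptide, is shown for this same pair, with the start codon in capitals.
Pdia3, chr2:121414039-121414068, plus strand: ATGcgcttcagctgcctagctctgctcccg
Manf, chr9:106891869-106891898, minus strand: ATGtgggctacgcgcgggctggcggtagcg
Manf had the shortest coding sequence of the group, 179 codons in 4 coding exons, against 416 (Calr) to 999 (Hyou1) codons in the other 9 genes.

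The values were read counts scaled by 1 factor per library. A single read was worth 0.0630 to 0.250 normalised units in the input libraries but 1.94 to 15.6 in the RPF libraries. Totals are of reads over the 8125 genes of the table only. In RPF libraries they were 558962 and 1126782 for control and 268255 and 140163 for knockout. Input totals ranged from 8382211 to 33609787 reads. All 9 stem cell markers searched were in the table, with summed input levels of 12966 to 13050 in control and 12910 to 13298 in knockout. Of 6 primitive endoderm markers, 3 (Sparc, Lama1 and Dab2) were in the table. Their summed input level was 556 to 565 in control and 691 to 730 in knockout. Gata4, Gata6 and Sox17, like the 7 fibroblast feeder markers, were searched but were not among the 8125 genes of the table. Whether this difference in primitive endoderm markers bears on the ER genes was not tested, and in such bulk libraries fewer cells of a type and less RNA per cell cannot be told apart.

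The 10 genes together took a nearly constant share of the reads over the 8125 genes of the table in every library. In input they held 0.515% and 0.549% of these reads in control and 0.553% and 0.544% in knockout. In RPF libraries they held 0.596% and 0.577% in control and 0.599% and 0.583% in knockout. Their values ranked between percentiles 76.0 and 99.1 of all genes in input and between 49.5 and 99.3 in RPF, and the lowest rank in each library was that of Manf. Depth per gene was uneven: in RPF libraries the reads ranged from 58 (Manf) to 755 (Hsp90b1) in control replicate 1, 120 to 1572 in control replicate 2, 14 to 377 in knockout replicate 1 and 8 to 205 in knockout replicate 2.

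**Figure D1:**
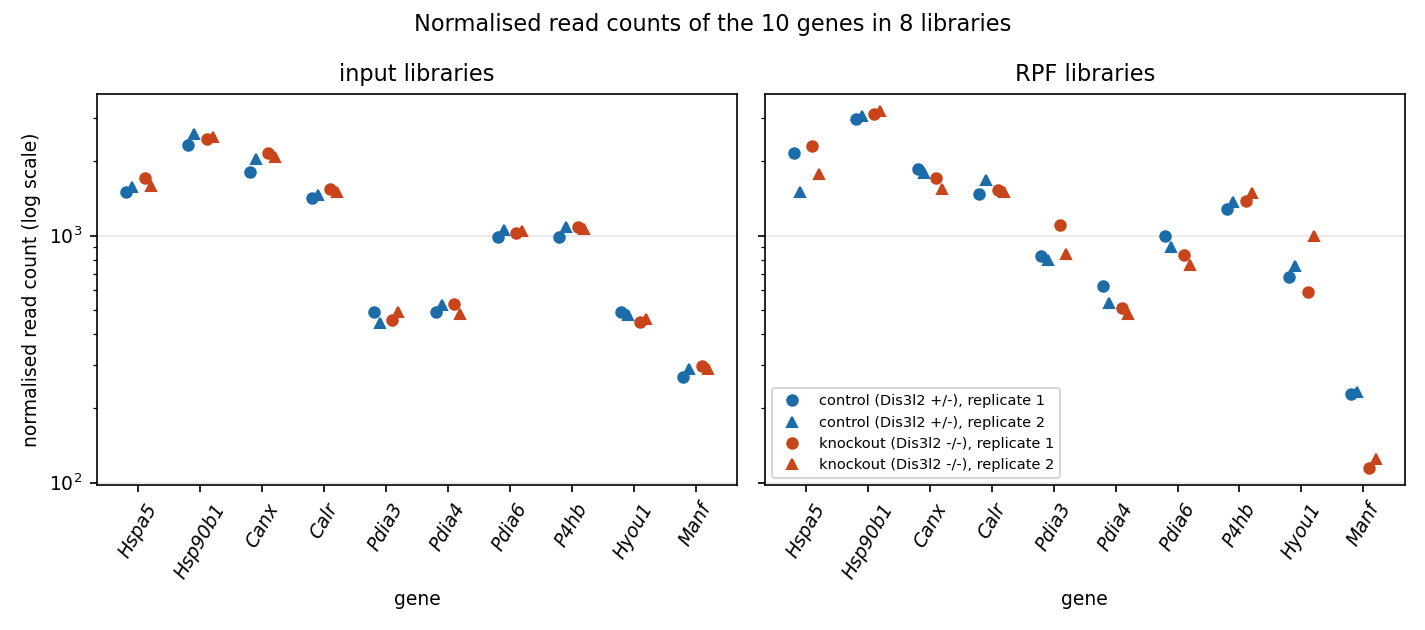
Normalised read counts (vertical axis, log scale) of the 10 genes in the 4 input libraries (left) and the 4 RPF libraries (right), 1 point per library. Input points of a gene lie close together in both genotypes, whereas in RPF the knockout values of Manf (115 and 124) lie below its control values (228 and 233).

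The first question was whether the mRNAs of the folding machinery differed between genotypes. None passed the test: 0 of 10 genes in input (limma, adjusted p under 0.05), where 27 of 7946 genes (0.34%) passed, and 0 of 10 had an unadjusted p under 0.05, where 12.7% of genes did. Changes are given as knockout over control on the scale of log2 of the normalised value plus 10, and they follow the names of the library columns. The deposited table's own column of TE change runs the other way for most genes in the same columns, and for every gene past 2-fold in it. Which of the pair carries the intended direction was not settled by the values, and if the column names were exchanged, every sign here would turn. The input changes lay between -0.095 (Hyou1) and 0.14 (Canx), with a median of 0.040 and 8 of 10 above 0, and every 95% confidence interval lay within 2-fold. Knockout values lay wholly above control for Hspa5, Canx and Calr and wholly below for Hyou1, 3 of 10 genes where 22.9% of all genes tested lay above without overlap, and 1 of 10 where 21.1% lay below. With 2 against 2 libraries, an exact permutation test cannot give a p below 0.333.

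Hspa5, the central chaperone of the lumen and the usual gauge of the unfolded protein response, lies on chromosome 2 (34771970 to 34777547, plus strand). It had input values of 1500 and 1581 in control and 1706 and 1588 in knockout, a log2 change of 0.096 ± 0.065 (SE; adjusted p = 0.560). Its RPF values were 2166 and 1509 in control and 2317 and 1773 in knockout. The genotypes overlapped in RPF, and the spread within control (SD 465 around a mean of 1837) exceeded the difference between the means. TE, the RPF value over the input value of the same replicate number, was 1.44 and 0.955 in control and 1.36 and 1.12 in knockout, a log2 change of 0.068 with a 95% confidence interval of -0.54 to 0.68 (adjusted p = 0.945). The sign of this change turned to -0.19 without control RPF replicate 2 and to -0.12 without knockout RPF replicate 1.

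Hyou1 (Grp170), which exchanges nucleotide on Hspa5 and is a large relative of it, lies on chromosome 9 (44379490 to 44392369, plus strand). It was at 492 and 478 in control input and at 449 and 458 in knockout input. This was the lowest change of the group in mRNA (-0.095, adjusted p = 0.539), with both knockout values below both control values. RPF values were 677 and 750 in control and 592 and 995 in knockout, so that the knockout libraries lay on either side of control. Its TE was 1.38 and 1.57 in control and 1.32 and 2.17 in knockout, the widest spread of any of the 10 genes in knockout (SD 0.606), behind which stood 72 and 64 RPF reads. The TE change of 0.20 (adjusted p = 0.833) rested on which knockout library was used: without knockout RPF replicate 1 it was 0.57 and passed (adjusted p = 0.0308) in a fit where 1345 of 6240 genes did, and without knockout RPF replicate 2 it was -0.17 (adjusted p = 0.407), in a range of adjusted p from 0.0308 to 0.982 over the alternatives.

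Manf, a small protein induced by ER stress that binds Hspa5 and can be secreted, had the largest difference in RPF and in TE of the 10 genes. Its mRNA was at 269 and 288 in control and 298 and 287 in knockout, where the genotypes overlapped (log2 change 0.069, adjusted p = 0.705). Its RPF values were 228 and 233 in control and 115 and 124 in knockout, a log2 change of -0.89 ± 0.34 (SE; 95% confidence interval -1.61 to -0.17, unadjusted p = 0.0187, adjusted p = 0.358 by limma). Both knockout libraries lay well below both control libraries. The TE was 0.850 and 0.808 in control and 0.387 and 0.433 in knockout, a log2 change of -0.96 ± 0.20 (SE; 95% confidence interval -1.44 to -0.49). In rank by p this change was 67th of 6240 genes, and it did not pass (limma, unadjusted p = 0.0017, adjusted p = 0.159). The TE fit pooled input and RPF libraries into a single variance per gene, so its SE lay below that of the RPF change (0.34). Where RPF libraries vary more than input libraries, the intervals and p-values of TE changes are too small.

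The Manf difference rested on few reads. The RPF libraries held 58 and 120 reads of Manf in control and 14 and 8 in knockout. Exact 95% Poisson intervals, which cover counting error only, ran from 173 to 295 and from 193 to 278 normalised units in control. In knockout they ran from 62.9 to 193 and from 53.7 to 245. The intervals of both knockout libraries reached into those of both control libraries. Knockout replicate 1 met control replicate 2 only at the ends of their intervals (both 193). Overlap of such intervals is not a test of a difference. On the RPF reads, edgeR gave -0.97 (adjusted p = 0.260), and DESeq2 gave -0.95 with no adjusted p. The call depended on the knockout RPF libraries: without replicate 2 the RPF change was -0.94 (adjusted p = 0.0289) and the TE change -1.01 (adjusted p = 0.0113), and without replicate 1 the TE change was -0.91 (adjusted p = 0.0119). In these fits 759 of 6260 genes passed in RPF, and 1113 and 1345 of 6240 in TE. Over all alternatives run, its adjusted p ranged from 0.0289 to 0.9998 in RPF and from 0.0113 to 0.932 in TE. With RPF reads thinned in a single random draw to the depth of the shallowest library, the changes were -0.62 in RPF and -0.69 in TE. The annotated region of Manf, on chromosome 9 from 106838312 to 106891979 (minus strand), overlaps Rbm15b on the same strand and Dcaf1 and the antisense gene 4930524O07Rik on the opposite strand. Rbm15b and Dcaf1 end outside the coding stretch, over which RPFs were counted, and 4930524O07Rik reaches into it. The counting was not stated to use strand, so reads of 4930524O07Rik and Manf cannot be told apart where these overlap.

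**Figure D2:**
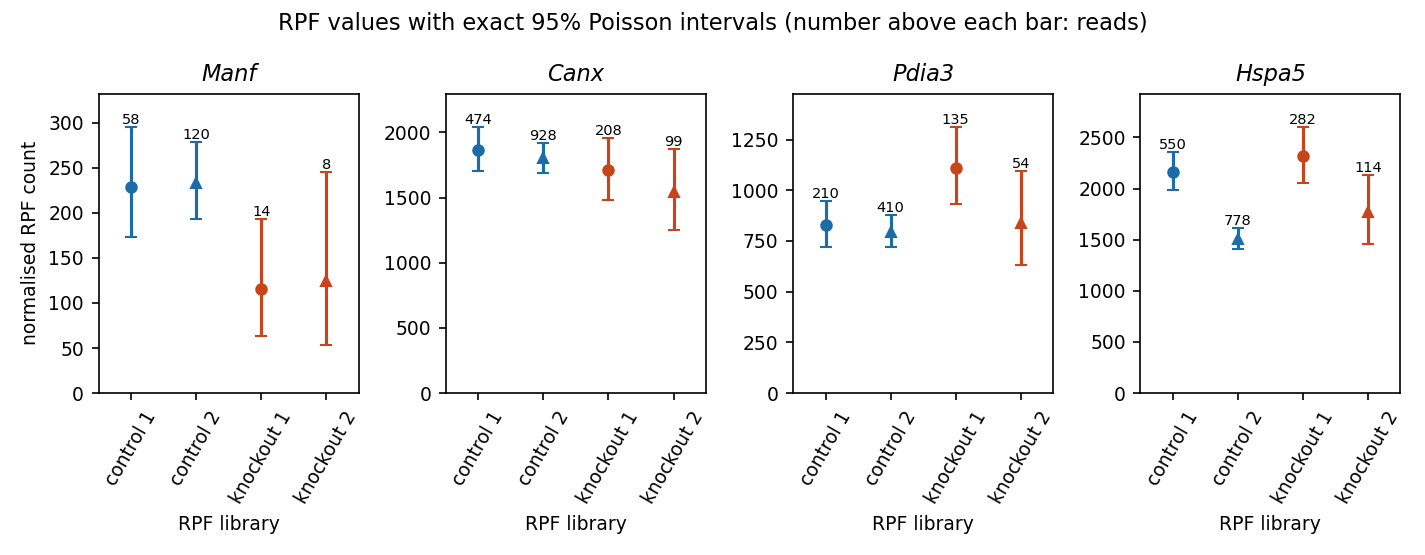
Normalised RPF values (vertical axes, from 0) of 4 genes in the 4 RPF libraries, with exact 95% Poisson intervals as bars and the number of reads above each. Manf had 14 and 8 reads in the knockout libraries, and its intervals there are wide compared with those of Canx, which had 208 and 99.

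Hsp90b1, the Hsp90 of the ER and the gene of the group with the most RPF reads, had the narrowest interval of TE change of the 10 genes. It lies on chromosome 10 (86690209 to 86705509, minus strand), where 1810014B01Rik overlaps it on the opposite strand and the small genes Gm15344 and Gm25745 on the same strand. Its input values were 2338 and 2578 in control and 2469 and 2514 in knockout. RPF values were 2973 and 3049 in control and 3098 and 3188 in knockout, both knockout values slightly above both control values (log2 change 0.062, 95% confidence interval -0.24 to 0.37, adjusted p = 0.918). TE was 1.27 and 1.18 in control and 1.25 and 1.27 in knockout, overlapping, with a change of 0.040 (interval -0.22 to 0.30).

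Canx and Calr, the membrane-bound and soluble lectins that hold glycoproteins while they fold, had higher input values in both knockout libraries than in either control library. Paired by replicate number, their TE was lower in both knockout libraries. Input is the divisor of TE, so these are not separate observations, and the RPF values of Calr overlapped. Neither gene passed. Canx input was 1816 and 2034 in control and 2155 and 2088 in knockout (log2 change 0.14, adjusted p = 0.431), the highest change of the group. Canx lies on chromosome 11 (50293961 to 50325673, minus strand) and Calr on chromosome 8 (84841850 to 84846934, minus strand). RPF values of Canx went the other way, from 1867 and 1800 in control to 1709 and 1540 in knockout (-0.18, adjusted p = 0.744). The knockout libraries lay above control in input and below it in RPF without overlap in either. TE was 1.03 and 0.885 in control and 0.793 and 0.737 in knockout, a change of -0.32 with a 95% confidence interval of -0.63 to -0.0015 (limma, unadjusted p = 0.0492, adjusted p = 0.379). Without control input replicate 2, the input change of Canx was 0.22 and passed (adjusted p = 0.0384) in a fit where 599 of 7946 genes did, and the alternatives gave adjusted p-values up to 0.932. With thinned RPF reads its RPF change was 0.12 and its TE change -0.019.

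Calr input was 1415 and 1456 in control and 1552 and 1497 in knockout, a change of 0.086 (adjusted p = 0.583). Its RPF values of 1469 and 1681 in control and 1528 and 1508 in knockout overlapped (-0.049, adjusted p = 0.946). TE was 1.04 and 1.15 in control and 0.985 and 1.01 in knockout, a change of -0.14 with an interval of -0.45 to 0.18. Paired by replicate number, both knockout values lay below both control values, with a gap between the nearest pair that was smaller than the spread within control.

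Pdia3 (ERp57), the disulfide isomerase that works with Canx and Calr on glycoproteins, had the highest TE of the 10 genes in both genotypes. It lies on chromosome 2 (121413775 to 121438687, plus strand), where Catsper2 overlaps its start on the opposite strand. Its input was 492 and 443 in control and 455 and 490 in knockout, overlapping, with a change of 0.015. RPF values were 827 and 795 in control and 1109 and 840 in knockout (log2 change 0.25, adjusted p = 0.700). Both knockout values were above control, replicate 2 by little. TE was 1.68 and 1.79 in control and 2.44 and 1.72 in knockout, so that the genotypes overlapped (0.23, interval -0.26 to 0.72, adjusted p = 0.679).

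The other disulfide isomerases differed in sign, P4hb with higher and Pdia4 and Pdia6 with lower RPF values in knockout, none past the threshold. P4hb, the classical protein disulfide isomerase and a subunit of collagen prolyl hydroxylase, lies on chromosome 11 (120560298 to 120573253, minus strand). It was at 985 and 1081 in control input and 1088 and 1062 in knockout input. Its RPF values of 1280 and 1365 in control and 1380 and 1493 in knockout did not overlap (0.12, adjusted p = 0.847). TE was 1.30 and 1.26 in control and 1.27 and 1.41 in knockout, with overlap and a change of 0.060 (interval -0.26 to 0.38).

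Pdia4 (ERp72), on chromosome 6 (47796141 to 47813430, minus strand), had input values of 493 and 525 in control and 529 and 483 in knockout, which overlapped. Its RPF values were 626 and 535 in control and 509 and 482 in knockout (-0.22, adjusted p = 0.770), and its TE was 1.27 and 1.02 in control and 0.962 and 0.998 in knockout (-0.21, adjusted p = 0.656). The lower control library and the higher knockout library were nearly level in both measures, and the sign turned with thinned RPF reads (0.13 in RPF and 0.14 in TE). Pdia6, on chromosome 12 (17266545 to 17284770, plus strand, with Atp6v1c2 on the opposite strand at its end), had input values of 987 and 1054 in control and 1024 and 1042 in knockout, and RPF values of 996 and 902 in control and 838 and 762 in knockout (-0.24, adjusted p = 0.687). Its TE of 1.01 and 0.856 in control and 0.818 and 0.732 in knockout gave a change of -0.26 (interval -0.60 to 0.081, adjusted p = 0.494). Both measures of Pdia6 were lower in both knockout libraries than in either control library, by an amount that did not pass.

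The RPF comparison asked whether ribosome occupancy of the group differed between genotypes, and no gene passed. In RPF, 0 of 10 passed by limma, where 39 of 6260 genes (0.623%) passed, and 1 of 10 (Manf) had an unadjusted p under 0.05, where 10.8% of genes did. By edgeR and by DESeq2 on the RPF reads, 0 of 10 passed as well (DESeq2 gave no adjusted p for Manf), where 90 genes (1.44%) and 58 genes (0.927%) did. Knockout and control RPF values did not overlap for 7 of 10 genes, 3 higher (Hsp90b1, Pdia3 and P4hb) and 4 lower (Canx, Pdia4, Pdia6 and Manf), where 21.6% of all genes were higher and 20.8% lower without overlap. The median RPF change of the 10 was 0.0060 beside -0.017 over all genes tested.

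For TE, limma passed 0 of 10 genes and 0 of 6240 (0.0%), while 814 genes (13.0%) and 2 of the 10 (Canx and Manf) had an unadjusted p under 0.05. Paired by replicate number, TE values did not overlap for 5 of the 10, all lower in knockout (Canx, Calr, Pdia4, Pdia6 and Manf), where 20.8% of all genes were lower without overlap, and for 0 of the 10 in the other direction, where 21.0% were. The labels and methods do not state that same-numbered input and RPF libraries belong together. Their deviations across genes were nearly unrelated (r = 0.021 in control and 0.0051 in knockout). Whether the other pairing keeps these counts was not tested. The same input libraries and RPF libraries serve every gene, so that the genes are not independent. The median TE change was -0.048 beside -0.022 for all genes tested. Group means of TE were at least 2-fold apart for 1 of the 10 genes, Manf, where 504 of 6240 genes (8.08%) were. For the other 9 genes, the 95% confidence interval of the TE change lay within 2-fold in either direction. These intervals are not a limit of detection. No gene of any size of TE change passed by limma, with changes down to -3.30 and a smallest adjusted p of 0.0820 over all genes tested. The TE intervals rest on a variance pooled over input and RPF libraries and can be too narrow. The median interval width of the 10 genes was 0.758 in TE and 0.848 in RPF.

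**Figure D3:**
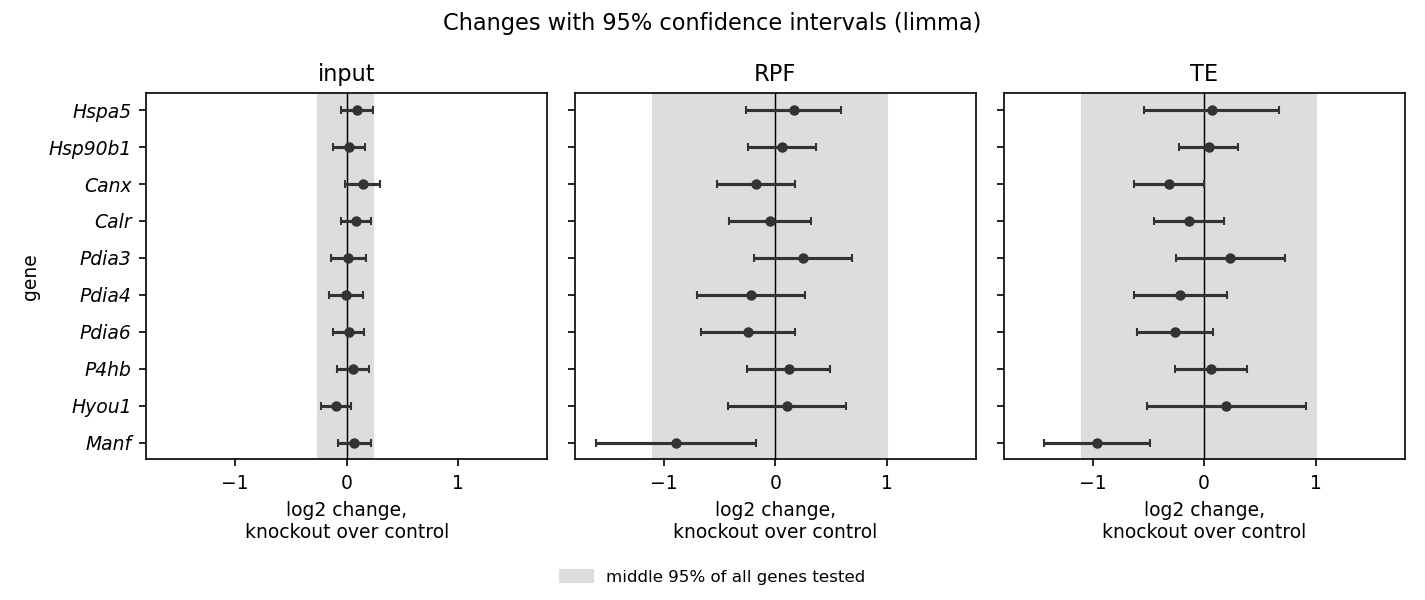
Log2 changes of the 10 genes (points) with 95% confidence intervals from limma (bars) in input, RPF and TE, knockout over control; the grey band holds the middle 95% of all genes tested in each comparison. Input intervals are narrow and lie near 0, and the point of Manf is farthest from 0 in RPF (-0.89) and TE (-0.96), inside the band in both.

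The genes also differed among themselves. In control, mean TE ran from 1.74 ± 0.0800 (Pdia3; mean ± SD, n = 2) over Hyou1 (1.47), P4hb (1.28), Hsp90b1 (1.23), Hspa5 (1.20), Pdia4 (1.15), Calr (1.10), Canx (0.956) and Pdia6 (0.932) to 0.829 ± 0.0300 (Manf). Neighbours in this order overlapped from P4hb to Calr and between Canx and Pdia6, and did not overlap between Pdia3 and Hyou1, Hyou1 and P4hb, Calr and Canx, or Pdia6 and Manf. The order in knockout began with the same 5 genes and ended with Manf as well, from 2.08 ± 0.512 (Pdia3) to 0.410 ± 0.0330 (Manf). In it, Pdia3 overlapped Hyou1, Hyou1 overlapped P4hb, and Manf did not overlap Canx (0.765), its nearest neighbour. As a percentile of all tested genes, the TE of Manf was 35.9 and 33.4 in control and 8.6 and 11.7 in knockout, while Pdia3 was at 78.6 and 81.2 in control and 87.0 and 76.4 in knockout. RPFs were counted over the coding sequence, and the labels and methods do not say over which stretch input reads were counted, so TE compares genotypes for 1 gene more safely than it compares genes.

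**Figure D4:**
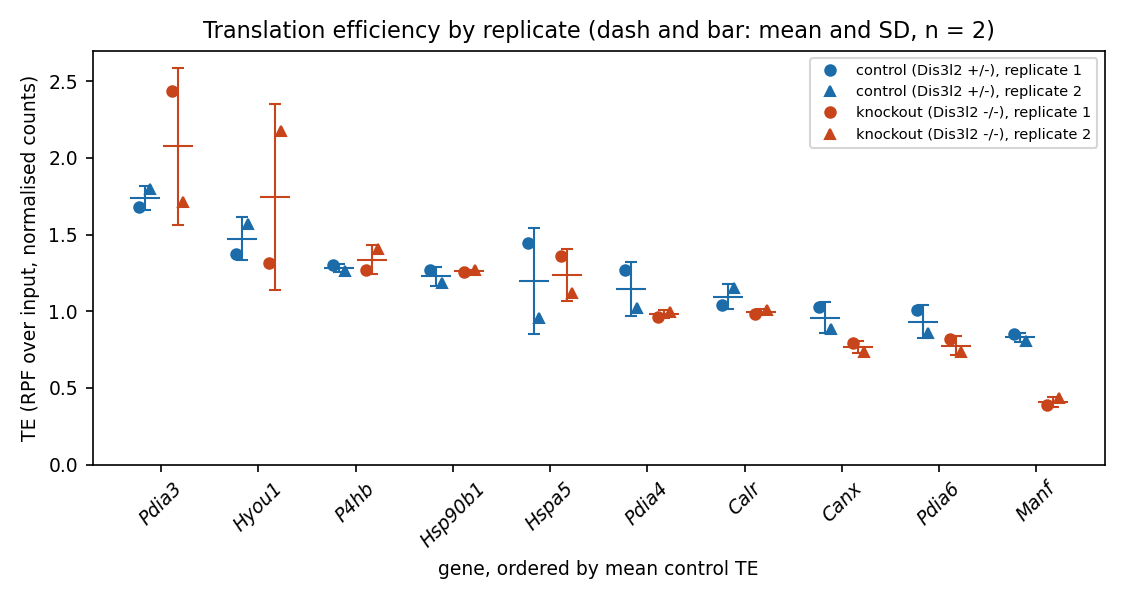
TE (RPF over input, vertical axis from 0) of each gene by replicate, ordered by the control mean; dashes and bars are the mean and SD of 2 replicates. Knockout points of Manf (0.387 and 0.433) lie below its control points (0.850 and 0.808), and Hyou1 and Pdia3 have the widest knockout bars.

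Per codon of coding sequence, which allows levels to be compared between genes, ribosome occupancy in control was highest on Calr (3.79 ± 0.361 normalised RPF units per codon) and Hsp90b1 (3.75 ± 0.0662). Canx (3.10), Hspa5 (2.81), P4hb (2.60), Pdia6 (2.13), Pdia3 (1.61), Manf (1.29) and Pdia4 (0.906) followed, and Hyou1 was lowest (0.715 ± 0.0518). In this measure Pdia3, first in TE, was 7th, and Hyou1, next to it in TE, was last. Knockout libraries put Hsp90b1 (3.92) and then Calr (3.65) at the top and Manf last (0.669 ± 0.0370), below Pdia4 (0.773) and Hyou1 (0.794).

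The partners of these proteins were counted from 8 lists of folding and stress genes. In input, RPF or TE, 0 genes of any list passed (limma, adjusted over all genes tested). Among all genes tested, 0.34% passed in input, 0.623% in RPF and 0.0% in TE, so a count of 0 in such short lists is near these shares. For signs in TE, 3000 of 6240 genes lay above 0 and 3240 below. From each list, the 2 tested genes with the highest control input are named, whatever their change. A single RPF read was worth 8.22 normalised units in knockout replicate 1 and 15.6 in knockout replicate 2. Low RPF values of these genes in knockout, and the TE changes drawn from them, therefore rest on few reads. The co-chaperones of BiP had 3 of 7 tested genes above 0 in TE and a median change of -0.066. Dnajc10, which also reduces disulfides, had a control TE of 0.368 and 0.391 and a knockout TE of 0.367 and 0.244 (-0.31, adjusted p = 0.717). Dnajb11, which hands clients to BiP, had a change of -0.23 (adjusted p = 0.890).

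Other thioredoxin-fold and thiol oxidation proteins of the ER had the lowest median TE change of the lists (-0.51, 9 of 12 below 0, beside -0.022 over all genes), with 3 of 12 genes under an unadjusted p of 0.05, where 13.0% of all genes were, and a smallest adjusted p of 0.353. The pair named by level lay above 0. Txndc5, a disulfide isomerase, had RPF values of 201 and 178 in control and 279 and 280 in knockout and a TE change of 0.52 (adjusted p = 0.353), the highest of the 12 genes tested. Erp29, which has a thioredoxin fold but no active cysteine pair, had a TE change of 0.066 (adjusted p = 0.963).

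Enzymes that trim glycans in the calnexin cycle had 5 of 8 genes above 0 in TE with a median of 0.23. The 2 named by level lay below 0. Ganab, the catalytic subunit of glucosidase II, had RPF values of 985 and 939 in control and 657 and 902 in knockout (TE change -0.27, adjusted p = 0.632). Uggt1, which tags misfolded glycoproteins for another round of Canx and Calr binding, had RPF values of 500.2 and 471 in control and 304 and 389 in knockout (-0.51, adjusted p = 0.354). Both had lower RPF values in each knockout library than in either control library.

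ER-associated degradation had 7 of 11 genes below 0 in TE and a median of -0.42. Ubxn4, an ER membrane factor that recruits the p97 ATPase, was at a TE of 0.686 and 1.08 in control and 0.420 and 0.350 in knockout (-1.08, adjusted p = 0.328), and Edem3, a mannosidase-like protein, at 0.850 and 0.487 against 0.376 and 0.289 (-0.86, adjusted p = 0.387). Of the prolyl isomerases, 4 of 6 were above 0, with Ppib (cyclophilin B) at -0.44 (adjusted p = 0.328) and Fkbp9 at 0.058. Among sensors and factors of the unfolded protein response, 6 of 11 were above 0 with a median of 0.094. Atf4, whose translation rises in the integrated stress response, had a TE of 0.393 and 0.226 in control and 0.336 and 0.250 in knockout, which overlapped (-0.044, adjusted p = 0.972). Mbtps1, the site-1 protease that cleaves Atf6, had a TE of 0.469 and 0.398 in control and 0.487 and 0.439 in knockout, which overlapped too (0.094, adjusted p = 0.852).

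Of the 3 KDEL receptors, which return escaped lumenal proteins to the ER, Kdelr2 had a TE change of 0.12 and Kdelr3 of -0.85 (adjusted p = 0.332). Kdelr3 had RPF values of 138 and 134 in control and 82.2 and 62.2 in knockout. At 8.22 and 15.6 units per read in the knockout RPF libraries, its knockout values rest on few reads. Chaperones of the cytosol and mitochondria, which do not enter the ER, served for comparison: 7 of 18 were above 0 in TE with a median of -0.071. Hsp90ab1 and Hsp90aa1, the cytosolic relatives of Hsp90b1, had TE changes of 0.11 and -0.12, beside 0.040 for Hsp90b1. Of the 9 stem cell markers, 4 were above 0 in TE. Pou5f1 had a TE of 0.455 and 0.473 in control and 0.390 and 0.407 in knockout, and Nanog 3.58 and 3.17 against 3.22 and 2.67, with adjusted p-values of 0.430 and 0.746.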

How the data were processed

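Input mRNA and RPFs of mouse embryonic stem cells were measured in 8 libraries, 2 per genotype and kind, prepared with the TruSeq Ribo Profile kit. By its methods, adapters were trimmed, poor reads and those of rRNA or tRNA removed, and RPFs aligned with Bowtie (no version is stated in the labels or methods) to known genes of mm10 with up to 1 mismatch. The deposited signal values are headed RPKM, but each library's values were whole multiples (within 0.02 read) of a step shared by all genes, so that the authors had scaled counts per library without regard to length. RPF reads were recovered from these steps. The log2 fold change deposited by the authors, their change of TE, and its call column were used only for a check of sign.

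Genotypes were compared with limma 3.58.1 (two-sided, eBayes with trend; R 4.3.3) after adding 10 to each value and taking log2, in the 4 libraries of a kind, or as the interaction of genotype and kind over 8 libraries for TE. Genes needed means of at least 10 in input and 50 in RPF, and all 10 members passed these filters. P-values were adjusted by Benjamini-Hochberg over all genes tested, with a threshold of 0.05. Alternatives were pseudocounts of 1 and 30, no filter, means of 100 and 200, equalised library medians, RPF over the mean input, the replicate number as a block, thinned RPF reads, edgeR 4.0.16 and DESeq2 1.42.0 on RPF reads, and each library left out. Reads were thinned by a single random draw. The scripts were tested on simulated data. Intervals on reads were exact Poisson intervals at 95%, which cover counting error only, since reads carry no molecular identifiers.

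The members and gene lists were chosen with earlier results of these data known. Named genes were all 10 members and, of each list, any gene that passed and the 2 tested genes of highest control input, with Pou5f1 and Nanog of the markers. Gene identifiers matched GENCODE M21 for 8125 of 8125 genes. The labels give no batch, so a batch or a clone cannot be told apart from genotype.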

Additional observations from a re-analysis of the deposited data

How the results depend on the processing

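Of 418 recomputed values of single genes, 389 kept their sign and their side of the threshold or moved by less than the replicate spread. Part of this agreement was fixed in advance. Changing the filter or adding the replicate block cannot alter a log2 change, and no member passed in the main fits. Manf in DESeq2, with no adjusted p, was counted as keeping its side. Counts of genes passing and medians are given apart from these. The stricter filter gave 14 in input, 84 in RPF and 40 in TE, and under it the RPF mean of Manf was too low to be tested. The replicate block gave 69 in input and 126 in RPF and changed no call of the 10 genes. Same-numbered libraries did not deviate together (r from 0.0051 to 0.091 across genes, which are not independent replicates). edgeR gave 90 in RPF, and thinned RPF reads 0. The median RPF change of the members was 0.062 under the stricter filter and -0.015 with equalised medians. The mean knockout TE of Hsp90b1 was 1.25 with equalised medians. With thinned RPF reads the sign turned in RPF for Hsp90b1 (-0.097), Canx (0.12), Pdia4 (0.13) and P4hb (-0.014). In TE it turned for Hsp90b1 (-0.12), Pdia4 (0.14) and P4hb (-0.072). Thinned values came from a single random draw, and their spread between draws was not tested. The cause of these turns was not tested either.

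With 1 library left out, the counts of genes passing ranged from 43 to 599 in input (most without control replicate 2), from 34 to 873 in RPF and from 0 to 1345 in TE (both most without knockout RPF replicate 1). The members passing ranged from 0 to 1 in input (Canx), from 0 to 1 in RPF (Manf) and from 0 to 2 in TE (Manf and Hyou1). The median member change ranged from 0.0059 to 0.099 in input and from -0.070 to -0.024 in RPF, and from -0.15 (without knockout RPF replicate 2) to -0.0047 (without control input replicate 1) in TE. Ranges that crossed 0 in input were -0.049 to 0.092 for Hsp90b1, -0.059 to 0.089 for Pdia3, -0.073 to 0.057 for Pdia4, -0.029 to 0.064 for Pdia6 and -0.0086 to 0.12 for P4hb. In RPF they were -0.095 to 0.42 for Hspa5, -0.15 to 0.047 for Calr and -0.27 to 0.48 for Hyou1. In TE they were -0.19 to 0.33 for Hspa5, -0.030 to 0.11 for Hsp90b1, -0.0061 to 0.13 for P4hb and -0.17 to 0.57 for Hyou1. A lone library in such fits was assumed to vary like the others. Depth limits RPF and TE most in knockout replicate 2.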
